A study of Mus musculus with 9 samples.

Results

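The 10 genes studied here hold mature T cells at rest, and were followed in MYCN-driven mouse T cell lymphoma and in control CD4 T cells: Klf2, Foxo1, Foxo3, Foxp1, Btg1, Btg2, Tob1, Slfn1, Slfn2 and Tsc1. They were taken by symbol from the deposited count table, which gave 10 rows of 46078 genes, and all 10 passed the filter on low counts that kept 15401 genes. The set was put together with the difference between lymphoma and CD4 T cells already known, so that difference is given for these 10 genes as a description and without a test. The lymphoma group holds 6 libraries of T cell lymphoma cells induced by MYCN and taken from the thymus (numbered 34, 53, 56, 70, 72 and 86), and the control group holds 3 libraries of CD4+ T cells from the spleen (numbered 1, 2 and 3). All animals were C57BL/6J. The labels give no promoter or Cre line for the MYCN transgene, no age, sex or batch, and do not say whether the libraries came from separate animals, so p-values measure the spread between these libraries only. Tissue and group coincide and cannot be told apart. The same holds for sex as the transcripts show it: Xist had 64 to 176 counts in the lymphomas and 4848 to 6162 in CD4, and Ddx3y, a Y-linked gene, 1646 to 2905 and 2 to 8. Lymphomas 34, 70 and 72 may be related, since the T cell receptor segment Trbv12-1 gave 66 of 84, 45 of 73 and 47 of 87 of their Trbv counts. The other lymphomas had 9 Trbv counts or fewer.

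A naive T cell stays out of the cell cycle through an active programme. KLF2 is a zinc finger transcription factor that keeps T cells small and circulating, in part by activating the egress receptor S1PR1. FOXO1 and FOXO3 are forkhead factors that growth signals through AKT drive out of the nucleus, FOXP1 is a forkhead factor that keeps naive T cells at rest, BTG1, BTG2 and TOB1 are antiproliferative proteins that recruit the CCR4-NOT deadenylase to messenger RNA, SLFN1 and SLFN2 are lymphoid Schlafen proteins, and TSC1 is part of the complex that holds back mTORC1.

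Reads counted in genes ranged from 8099960 to 10808828 per CD4 library and from 11170704 to 15769679 per lymphoma library. Sequencing depth thus coincides with group as well, and lymphoma 53 had the fewest reads of the lymphomas. A count of 0 allows up to 3 counts, or 0.184 to 0.36 CPM (counts scaled to a library total of 1000000, after TMM scaling), for counting error only. Both groups carried T cell transcripts: Cd3d lay at 386 to 512 CPM in lymphoma and 421 to 454 CPM in CD4. Cd4 itself lay at 6.04 to 71.9 CPM in lymphoma and 199 to 263 CPM in CD4. Cd8a lay at 25.6 to 31.8 CPM in CD4 and 29.4 CPM in lymphoma 53, against 0.0645 to 1.53 CPM in the other lymphomas. Cd8b1 lay at 35.9 to 44.9 CPM in CD4 and 47.6 CPM in lymphoma 53, against 0 to 0.735 CPM in the others. Trbc1 stood at 5.11 CPM in lymphoma 53 and at 438 to 1836 CPM in the other lymphomas. Libraries of both groups also carried transcripts of other cells. Summed over 12 B cell markers, CD4 libraries had 2387 to 2816 CPM against 33.9 to 98.9 CPM in lymphoma, and all 12 were higher in every CD4 library. The summed T cell markers were 4593 to 5157 CPM in CD4 and 2907 to 6326 CPM in lymphoma. Myeloid markers summed to 781 to 994 CPM in CD4 and 59.8 to 2159 CPM in lymphoma, with 4 of 10 higher in every CD4 library, and plasmacytoid dendritic cell markers to 870 to 891 and 96.7 to 374 CPM, with 7 of 8. Resting B cells express several of the 10 genes too, and the part that B cell RNA has in the CD4 levels below was not tested. In bulk samples fewer cells of a type and less RNA per cell cannot be told apart. Lymphoma 53 stands apart from the other lymphomas and CD4 3 from the other CD4 libraries in several of the 10 genes, and values without them are given where they matter.

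The promoters of the 10 genes fell into 2 kinds, shown here because the genes lie lower together although their promoters are unlike. RefSeq start sites (GRCm38.p6) were found for all 10 genes, in 12 windows that run from 250 bases before to 50 after each start. The median window of 32851 in the table holds 7 CpG dinucleotides, with quartiles of 3 and 20. Of the 10 genes, 8 have a window with 20 or more, among them Klf2 with 32, Foxo3 with 35 and Btg1 with 25. Slfn1 with 6 and Slfn2 with 2 lie under the median. The parts before the start of Klf2 (GRCm38.p6, chr8:72318812-72319032, plus strand) and Slfn1 (chr11:83116570-83116819, plus strand) are printed 5′ to 3′ with each CpG in capitals:
Klf2: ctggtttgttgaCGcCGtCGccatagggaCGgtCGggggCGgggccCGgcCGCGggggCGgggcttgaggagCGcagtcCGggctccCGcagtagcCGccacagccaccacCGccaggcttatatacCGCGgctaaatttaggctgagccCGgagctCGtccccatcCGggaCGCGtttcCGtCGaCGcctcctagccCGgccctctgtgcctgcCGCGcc
Slfn1: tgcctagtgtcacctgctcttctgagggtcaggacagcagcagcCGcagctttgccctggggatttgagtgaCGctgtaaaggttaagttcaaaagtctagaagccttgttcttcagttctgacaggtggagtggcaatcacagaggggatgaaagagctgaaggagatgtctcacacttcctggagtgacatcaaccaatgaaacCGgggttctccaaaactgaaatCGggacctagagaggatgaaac
There are 28 CpG in the 221 bases of Klf2 and 4 in the 250 bases of Slfn1. The motifs searched on both strands were CACGTG (the E-box that MYC proteins bind), GTAAACA (forkhead), GGGTGTGG (KLF) and an interferon response element of TTTC and TTTC with NN between them. They occur in 7.15%, 3.65%, 3.56% and 3.44% of all windows. Among the 12 windows of the 10 genes there was 1 match, a forkhead motif in Btg1 that reads TGTTTAC on the strand of the gene and begins 204 bases before the start. The Btg1 sequence (chr10:96616751-96617000, plus strand) is printed with that match in capitals:
Btg1: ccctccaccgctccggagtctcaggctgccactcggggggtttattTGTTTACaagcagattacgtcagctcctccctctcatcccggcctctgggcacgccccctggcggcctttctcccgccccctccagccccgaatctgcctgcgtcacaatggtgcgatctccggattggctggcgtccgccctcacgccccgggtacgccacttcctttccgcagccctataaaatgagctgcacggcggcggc
A match is a run of letters and not a measured binding site.

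Every one of the 10 genes had a fitted log2 fold change below 0 (lymphoma over CD4), with a median of -2.40 against 0.04 over all tested genes. At 9 of the 10 genes all 6 lymphomas lay below all 3 CD4 libraries in CPM, an arrangement found at 22.3% of tested genes, and Tob1 was the exception. The count stayed at 9 without lymphoma 53, without CD4 3 and without both. With lymphomas 34, 70 and 72 averaged into 1 library, all 10 fold changes were again below 0, from -6.76 at Btg1 to -0.43 at Foxo3. A fitted change of at least 2-fold downwards was met by 7 genes (23.4% of tested genes), and Foxo3, Tob1 and Tsc1 were the smaller ones. Since the genes were chosen on this difference, nothing is read from these counts. Levels are not compared between genes, because reads come from transcript 3′ ends.

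**Figure D1:**
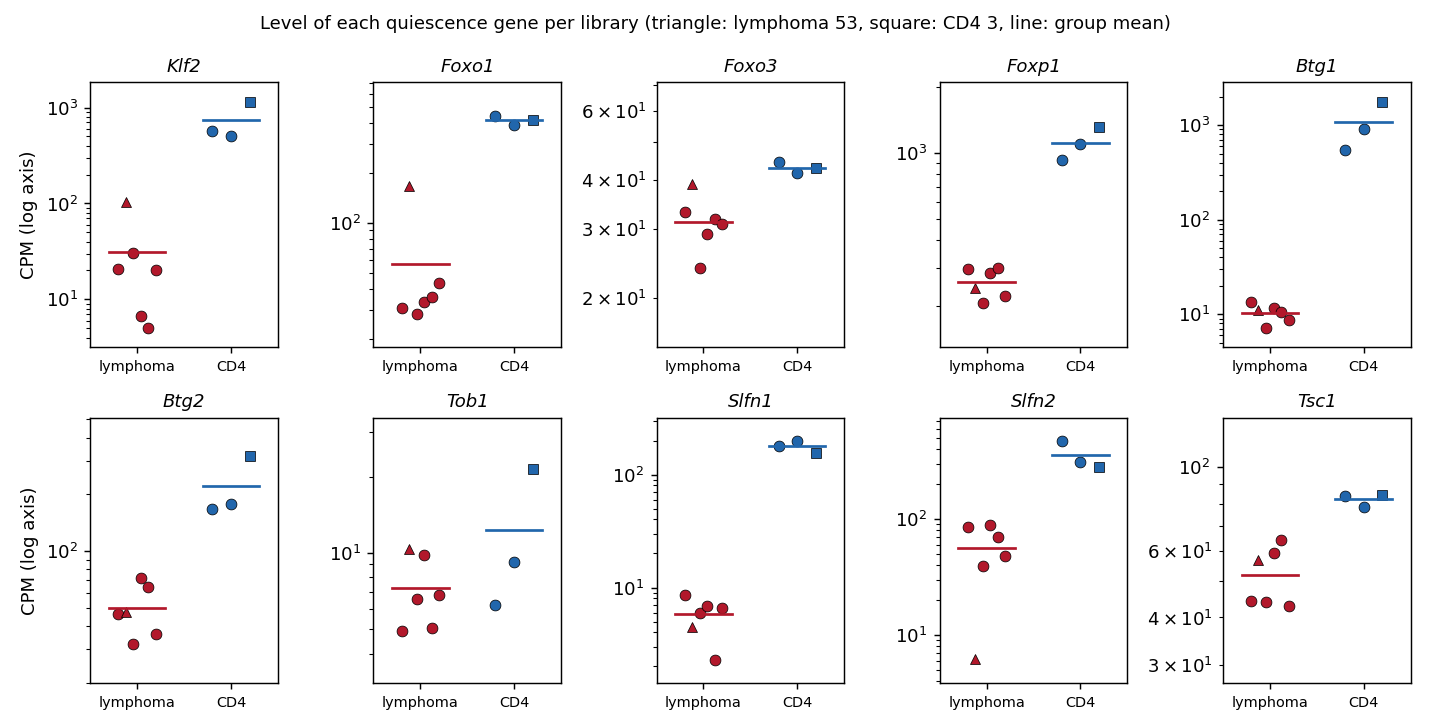
CPM of each of the 10 genes (log axis, 1 panel per gene) in the 6 lymphoma libraries (red) and 3 CD4 libraries (blue). Lines are group means, the triangle is lymphoma 53 and the square CD4 3. Klf2 and Foxo1 are highest and Slfn2 lowest in lymphoma 53, and Tob1 is the panel in which the groups overlap.

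Klf2 (ENSMUSG00000055148, GRCm38 chr8:72319033-72321656) had 5.04 CPM in the lowest lymphoma, a median of 20.6 and 105 in the highest, and 576, 500 and 1146 CPM in CD4 1, 2 and 3. The highest lymphoma was 53, the next had 30.8 CPM, and the lowest CD4 library was above all lymphomas. The means were 31.4 ± 37.2 CPM (SD, n = 6) and 741 ± 353 CPM (SD, n = 3), with a log2 fold change of -4.57 (SE 0.882). Without lymphoma 53 it was -5.47 (SE 0.645), and without CD4 3 it was -4.10 (SE 0.938).

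Other KLF genes moved in both directions. This list and those below were chosen with earlier results of these data known, so their counts of calls are descriptions. Of 16 listed relatives, 11 were tested: by the quasi-likelihood test of edgeR, adjusted by Benjamini-Hochberg over all tested genes, 4 were lower (21.9% of tested genes were) and 2 higher (24.7% were), with a median log2 fold change of -0.31. Klf6, an immediate early KLF, fell by 6.04 on the log2 scale (SE 0.513, edgeR adjusted p 9.7e-06), from 352, 467 and 1957 CPM in CD4 to 9.37 to 18.7 CPM in lymphoma. Its change was -4.86 without CD4 3. Klf3, which encodes a repressor of KLF target genes, fell by 5.88 (SE 0.437, edgeR adjusted p 2.56e-06). Klf9 and Klf10 went the other way. Klf9 rose by 2.91 (SE 0.665, edgeR adjusted p 0.00518), from 11.8, 14.2 and 64.1 CPM in CD4 to 69.2 to 302 CPM in lymphoma. The change was 2.54 without CD4 1 and 4.13 without CD4 3. Klf10, a TGF-beta inducible KLF, rose by 2.32 (SE 0.228, edgeR adjusted p 1.04e-05), with 33.1 to 40.7 CPM in lymphoma against 5.76 to 9.83 CPM in CD4.

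Foxo1 (ENSMUSG00000044167, chr3:52268336-52353221) had 28.4 CPM in the lowest lymphoma, a median of 34.7 and 167 in the highest, and 440, 387 and 418 CPM in CD4 1, 2 and 3. Lymphoma 53 was again the highest, and the other lymphomas lay between 28.4 and 43.1 CPM. The log2 fold change was -2.88 (SE 0.542), and -3.60 (SE 0.150) without lymphoma 53. A gene model of the same strand and an antisense model overlap Foxo1, so its level is uncertain to that extent. Foxo3 (ENSMUSG00000048756, chr10:42181841-42276755) differed far less, with 23.9, 31.2 and 39.1 CPM as lowest, median and highest lymphoma and 44.4, 41.5 and 42.9 CPM in CD4. The groups did not overlap, but the gap between the highest lymphoma, again 53, and the lowest CD4 library was small, and the log2 fold change was -0.46 (SE 0.177). Foxp1 (ENSMUSG00000030067, chr6:98925338-99522721) had 208, 263 and 300.1 CPM as lowest, median and highest lymphoma and 923, 1093 and 1307 CPM in CD4. Its log2 fold change was -2.10 (SE 0.165), and all lymphomas lay within 1.44-fold of each other. The annotation places another gene model of the same strand across part of Foxp1, so reads in shared exons may have been set aside as ambiguous and its level is uncertain.

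Of 5 listed FOXO and FOXP relatives, 3 were tested, and 2 were lower by edgeR, where 21.9% of all tested genes were. Foxo4, the third widely expressed FOXO gene, fell by 2.25 (SE 0.252, edgeR adjusted p 2.62e-05), from 63.7 to 121 CPM in CD4 to 13.1 to 28.2 CPM in lymphoma. Foxp3, the factor that defines regulatory T cells, fell by 8.61 (SE 0.755, edgeR adjusted p 5.94e-06), with 719, 218 and 299 counts in CD4 and at most 6 counts in any lymphoma. Its fitted change was -10.04 without lymphoma 86 and -7.995 without CD4 1. Foxp4 did not pass the test (log2 fold change 0.13, SE 0.220, edgeR adjusted p 0.653).

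Btg1 (ENSMUSG00000036478, chr10:96617006-96622809) had the largest difference of the 10 genes. The lymphomas had 7.13, 10.9 and 13.4 CPM as lowest, median and highest, and CD4 1, 2 and 3 had 544, 911 and 1773 CPM. The lymphomas were close to one another, and the spread lay in the controls, where CD4 3 had 3.26 times the level of CD4 1. The log2 fold change was -6.69 (SE 0.340), a fitted 103-fold difference, and -6.11 (SE 0.253), a 69.2-fold difference, without CD4 3. Only 0.727% of tested genes had a lower fold change.

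Btg2 (ENSMUSG00000020423, chr1:134075170-134079120), also a target of p53, had 31.9, 46.7 and 72.3 CPM as lowest, median and highest lymphoma and 168, 178 and 319 CPM in CD4. All lymphomas were below all CD4 libraries, and the log2 fold change was -2.16 (SE 0.277), or -1.79 (SE 0.278) without CD4 3. Tob1 (ENSMUSG00000037573, chr11:94211454-94215495) was the gene with overlapping groups, at 4.90, 6.67 and 10.3 CPM as lowest, median and highest lymphoma and 6.20, 9.24 and 21.4 CPM in CD4. Its log2 fold change of -0.77 (SE 0.410) came down to -0.08 (SE 0.419) without CD4 3, so 1 control library holds nearly all of it.

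The relatives Btg3 and Tob2 did not pass the test. Tob2 had 55.7 to 65.6 CPM in lymphoma and 52.96 to 91.0 CPM in CD4 (log2 fold change -0.18, SE 0.179, edgeR adjusted p 0.435), and Btg3 had at most 3.06 CPM in lymphoma and 11.6 CPM in CD4 3 (-1.57, SE 0.973, edgeR adjusted p 0.211). Without CD4 3 both signs turned, to 0.18 for Btg3 and 0.08 for Tob2. BTG and TOB proteins recruit a deadenylase. Of 17 genes of CCR4-NOT, PAN2-PAN3 and their adaptors, 5 were higher and 5 lower by edgeR, with a median log2 fold change of 0.03, where 24.7% of all tested genes were higher and 21.9% lower. Cnot9, the subunit that binds the TNRC6 adaptors, rose by 2.23 (SE 0.173, edgeR adjusted p 1.81e-06), and Cnot11, a scaffold-bound subunit, rose by 1.04 (SE 0.207, edgeR adjusted p 0.00155). Pabpc1, the poly(A)-binding protein, rose by 1.29 (SE 0.303, edgeR adjusted p 0.00455) although lymphoma 53, at 967 CPM, lay within the CD4 range of 912 to 1145 CPM. Among the adaptors, Tnrc6b fell by 1.12 (SE 0.169, edgeR adjusted p 0.000224) and Tnrc6a by 0.90 (SE 0.130, edgeR adjusted p 0.000167). Pan3 fell by 0.92 (SE 0.140, edgeR adjusted p 0.00025).

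**Figure D2:**
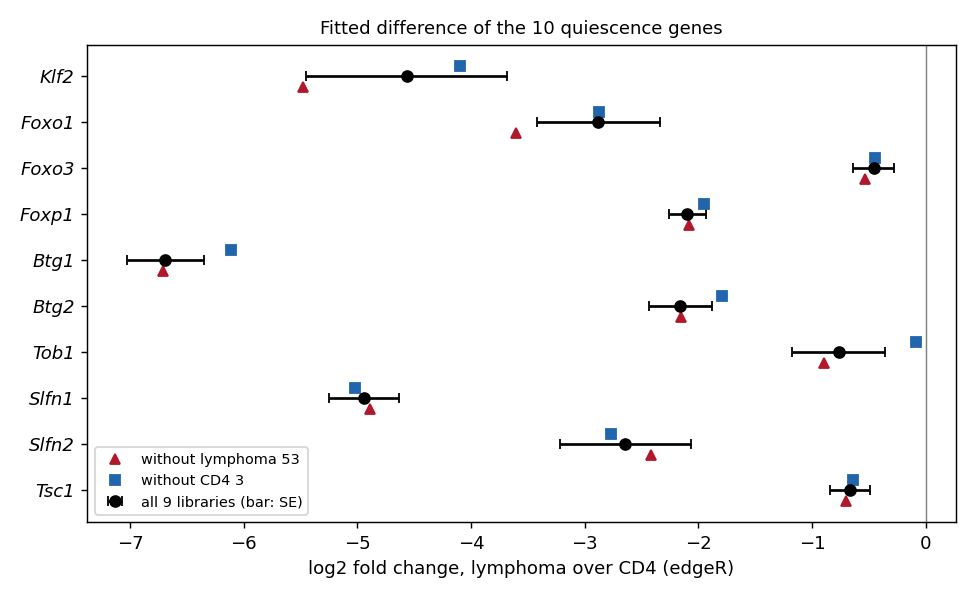
Fitted log2 fold change (lymphoma over CD4, edgeR) of the 10 genes, with bars of 1 SE over all 9 libraries (black), without lymphoma 53 (red triangle) and without CD4 3 (blue square). All points lie below 0. Klf2 and Foxo1 move further down without lymphoma 53, to -5.47 and -3.60, and Tob1 moves to -0.08 without CD4 3.

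Slfn1 (ENSMUSG00000078763) had 2.29, 6.27 and 8.51 CPM as lowest, median and highest lymphoma and 180, 199 and 155 CPM in CD4 1, 2 and 3. The groups lay far apart, with a log2 fold change of -4.94 (SE 0.308), and lymphoma 53, at 4.48 CPM, lay within the range of the others. Slfn2 (ENSMUSG00000072620), whose loss makes mouse T cells unable to keep at rest, had 6.21, 59.3 and 89.2 CPM as lowest, median and highest lymphoma and 465, 309 and 282 CPM in CD4. The lowest lymphoma was 53 and the next had 39.4 CPM. The log2 fold change was -2.64 (SE 0.577), and -2.41 (SE 0.269) without lymphoma 53. An antisense gene model overlaps Slfn2, and without a stated strand setting reads of the pair cannot be told apart.

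Both genes lie in the Schlafen cluster of chromosome 11, 46.2 kb apart (Slfn2 at chr11:83065112-83070678 and Slfn1 at chr11:83116849-83122670). Of 8 listed relatives 6 were tested, and 2 were lower and 0 higher by edgeR, where 21.9% and 24.7% of all tested genes were. Slfn5 fell by 3.68 (SE 0.386, edgeR adjusted p 1.66e-05) and Slfn8 by 2.62 (SE 0.358, edgeR adjusted p 0.000133). Fold changes in the cluster went in both directions. With all libraries Slfn3 (1.195, edgeR adjusted p 0.0605), Slfn9 (0.67, edgeR adjusted p 0.268) and the pseudogene Slfn10-ps (1.25, edgeR adjusted p 0.154) did not pass the test. Without lymphoma 53 they passed, as higher, in a fit that called 8137 genes of the whole table against 7174. Lymphoma 53 was their lowest lymphoma, so leaving it out raises these fold changes, and the p-values without it are descriptions. Slfn10-ps, singled out after its values had been seen, had 88.4 to 116 CPM in those 5 lymphomas, 35.1 to 40.2 CPM in CD4 and 6.03 CPM in lymphoma 53 (log2 fold change 1.49, SE 0.150, edgeR adjusted p 7.64e-06 without lymphoma 53). Slfn3 then had 1.36 (SE 0.384, edgeR adjusted p 0.0102) and Slfn9 0.85 (SE 0.324, edgeR adjusted p 0.0426). Lymphoma 53 was the lowest lymphoma at 6 of the 8 tested Schlafen genes of the cluster, while it was the lowest at 33.3% of all tested genes. Reads that align to several places are in no gene's count, so levels of these related genes are uncertain.

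**Figure D3:**
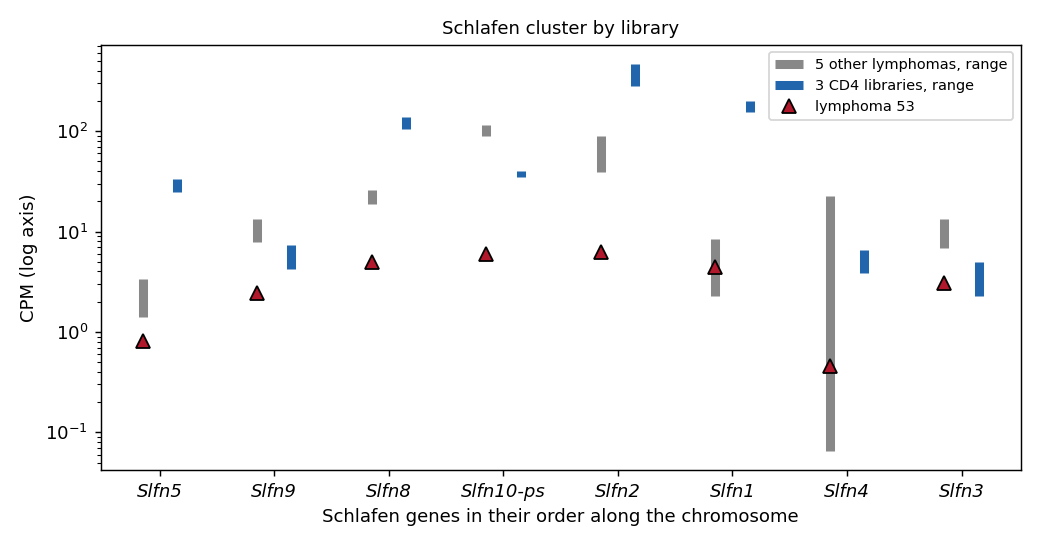
CPM (log axis) of the 8 tested Schlafen genes in their order along chromosome 11, as the range over 5 lymphomas (grey), lymphoma 53 (red triangle) and the range over 3 CD4 libraries (blue). Lymphoma 53 lies under the grey range at 6 genes and within it at Slfn1 and Slfn4. Slfn1, Slfn2, Slfn5 and Slfn8 have grey ranges below the blue ones, and Slfn3, Slfn9 and Slfn10-ps above.

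Tsc1 (ENSMUSG00000026812, chr2:28641228-28691167) had 43.0, 50.5 and 64.0 CPM as lowest, median and highest lymphoma and 83.8, 78.4 and 84.5 CPM in CD4. The groups did not overlap although the difference was small, with a log2 fold change of -0.67 (SE 0.173). Tsc2, its partner in the complex, did not pass the test, with 10.2 to 16.5 CPM in lymphoma and 8.97 to 11.4 CPM in CD4 (log2 fold change 0.38, SE 0.262, edgeR adjusted p 0.256). Tbc1d7, the third subunit, rose by 2.75 (SE 0.615, edgeR adjusted p 0.0032), from 0.24 to 1.84 CPM in CD4 to 4.32 to 8.59 CPM in lymphoma. It had 6, 2 and 20 counts in CD4 1, 2 and 3, so CD4 2 lay within the 3 counts that a count of 0 allows. Its change was 2.33 without CD4 2 and 3.86 without CD4 3.

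Across 25 genes of the TSC complex and mTOR pathway, 5 were higher and 6 lower by edgeR, shares near those of all tested genes (24.7% and 21.9%), with a median log2 fold change of 0.29. Without lymphoma 53 there were 7 of each, while the genes called in the whole table rose from 7174 to 8137. Among the 6 that were lower, Sesn1, Sesn3 and Pik3ip1 restrain the pathway. Sesn3, a sestrin that restrains mTORC1, fell by 2.76 (SE 0.506, edgeR adjusted p 0.00117), and Pik3ip1, which inhibits phosphatidylinositol 3-kinase, fell by 2.32 (SE 0.249, edgeR adjusted p 1.9e-05). Also lower were Rictor, a part of mTORC2, and the kinase Pdpk1, whose call was lost without CD4 3 (edgeR adjusted p 0.106). Among the genes that were higher, Akt1, the kinase that inactivates FOXO proteins, rose by 1.41 (SE 0.250, edgeR adjusted p 0.000717). Eif4ebp1, a translation repressor that mTORC1 inactivates, rose by 2.97 (SE 0.520, edgeR adjusted p 0.000744). Its change was 3.97 without CD4 1 and 2.595 without CD4 3.

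Genes known to depend on KLF2 or FOXO1 were examined from the same count table. Of 10 listed KLF2 targets 8 were tested, and 7 were lower and 0 higher by edgeR, with a median log2 fold change of -3.79. Over all tested genes 21.9% were lower and 24.7% higher. S1pr1, the receptor for egress from lymphoid tissue, fell by 5.80 (SE 0.311, edgeR adjusted p 2.05e-07), from 350.0 to 467 CPM in CD4 to 4.45 to 11.5 CPM in lymphoma. Il6ra, a chain of the interleukin 6 receptor, fell by 5.11 (SE 0.466, edgeR adjusted p 1.21e-05). Cd69, an activation antigen that opposes S1PR1 and is held down in cells that express KLF2, was lower as well (-4.01, SE 0.541, edgeR adjusted p 0.000126). It was -3.10 without CD4 3, where Cd69 stood at 91.6 CPM against 26.8 and 24 CPM in the other CD4 libraries. Cdkn1a did not pass the test (1.18, SE 0.618, edgeR adjusted p 0.142). B cells express S1pr1 too, and the part of the B cell transcripts in these differences was not tested.

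Of 25 listed FOXO targets 23 were tested, and 13 were lower and 1 higher by edgeR, with a median log2 fold change of -0.96. The shares of all tested genes were 21.9% lower and 24.7% higher. Il7r, the interleukin 7 receptor of resting T cells, fell by 3.99 (SE 0.506, edgeR adjusted p 0.000131). Irs2, an adaptor of insulin signalling, fell by 4.0 (SE 0.909, edgeR adjusted p 0.00355), and its call was lost without CD4 3 (-2.67, edgeR adjusted p 0.0688). Sod2, the mitochondrial superoxide dismutase, was the 1 that rose, by 1.81 (SE 0.262, edgeR adjusted p 0.000174). Rag1 and Rag2, which FOXO1 activates in developing lymphocytes, had 2 counts or fewer in every library and were not tested.

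Of 25 other regulators of T cell quiescence, 16 were lower and 1 higher by edgeR, with a median log2 fold change of -1.37. Over all tested genes 21.9% were lower and 24.7% higher. This list too was chosen with earlier results of these data known, so nothing is read from its counts. Satb1, a chromatin organiser, fell by 5.54 (SE 0.200, edgeR adjusted p 2.75e-08), from 879, 1263 and 1416 CPM in CD4 to 18.5 to 31.6 CPM in lymphoma. Bach2, a repressor that holds back effector differentiation, fell by 5.35 (SE 0.339, edgeR adjusted p 5.47e-07). Tcf7, the T cell factor TCF1, was the 1 that rose, by 0.90 (SE 0.175, edgeR adjusted p 0.0013), with 506 to 775 CPM in lymphoma against 280 to 372 CPM in CD4. All 12 cell cycle genes listed as a counterpart were higher, where 24.7% of all tested genes were, with a median log2 fold change of 3.39. The largest was Ccnb1, cyclin B1, which rose by 4.32 (SE 0.423, edgeR adjusted p 1.11e-05), followed by Ccna2, cyclin A2, at 4.16 (SE 0.296, edgeR adjusted p 9.78e-07) and Tyms, thymidylate synthase, at 3.73 (SE 0.303, edgeR adjusted p 2.5e-06).

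**Figure D4:**
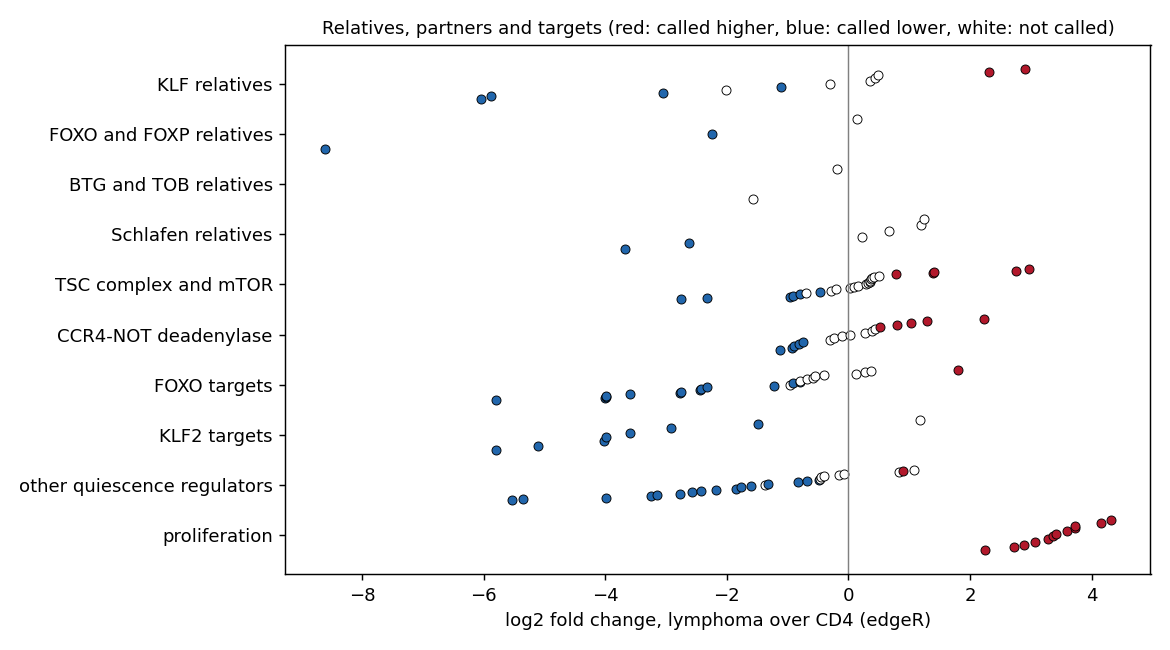
Fitted log2 fold change (lymphoma over CD4, edgeR) of every tested gene of the 10 lists of relatives, partners, targets and counterparts, 1 row per list. Red points were called higher, blue lower, and white points did not pass an adjusted p of 0.05. The KLF2 targets have 7 blue points and 0 red ones, the CCR4-NOT list has 5 of each, and the proliferation list has 12 red points. Over all tested genes 21.9% were called lower and 24.7% higher.

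The 10 genes differed in how much they varied among the lymphomas, a measure that the choice of genes did not use. The SD of log2 CPM over the 6 lymphomas was 1.57 for Klf2 and 1.43 for Slfn2, larger than at 95% and 93.1% of tested genes, and 0.96 for Foxo1. It was 0.23 for Foxp1 and for Foxo3 and 0.26 for Tsc1, below the median of 0.47 over all tested genes. Klf2 spanned 20.8-fold and Slfn2 14.4-fold between the lowest and highest lymphoma. Lymphoma 53 set both ranges, with opposite sign: its Klf2 was 6.25 times and its Foxo1 4.87 times the mean of the other lymphomas, while the mean of the others was 10.7 times its Slfn2. Lymphomas 70 and 72 were the 2 lowest in Klf2, at 6.68 and 5.04 CPM, and the 2 highest in Btg2, at 72.3 and 64.0 CPM. Beside its high Klf2, lymphoma 53 was the highest lymphoma at 4 of the 8 tested KLF2 targets, among them S1pr1, Itgb7 and Cd69, and at 30.5% of all tested genes. Of these, Cd69 is held down in cells that express KLF2. Of the 23 tested FOXO targets, 11 were highest and 9 lowest in lymphoma 53, against 30.5% and 33.3% of all tested genes. Itgb7, an integrin chain, had 134 CPM there and 13.7 to 30.4 CPM in the other lymphomas, whereas S1pr1 had 11.5 CPM there and 10.6 CPM in lymphoma 56. Of the plasmacytoid dendritic cell markers, Irf8 had 268.8 CPM in lymphoma 53 and 31.9 to 72.3 CPM in the others, and gave most of its summed level of 374 CPM (96.7 to 121 CPM in the others). Bst2, Tcf4 and Runx2 were also highest in lymphoma 53, at 22.7, 71.1 and 5.84 CPM. The defining markers Siglech and Spib were each at 0.0913 CPM there, Klk1 was at 0, and Ccr9, at 5.02 CPM, was not the highest.

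**Figure D5:**
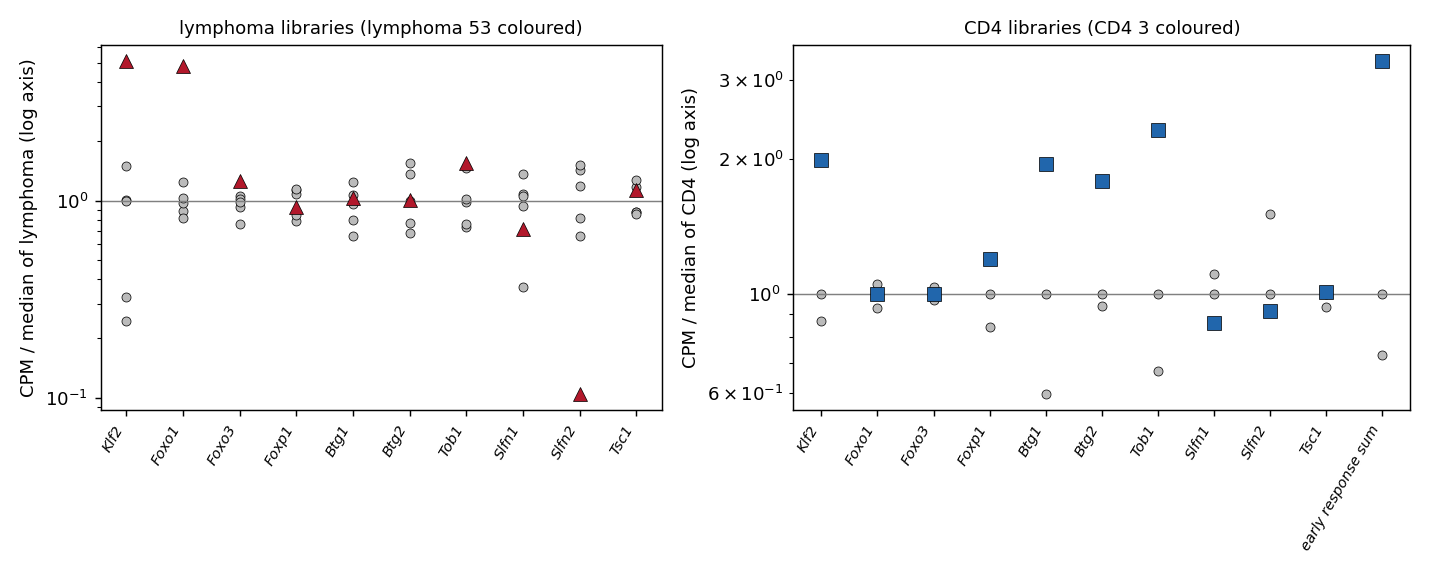
CPM of each gene divided by the median of its own group (log axes), for the 6 lymphomas on the left (lymphoma 53 as red triangle) and the 3 CD4 libraries on the right (CD4 3 as blue square), with the sum of 10 early response genes as last column on the right. Lymphoma 53 stands out at Klf2, Foxo1 and Slfn2, and CD4 3 at Klf2, Btg1, Btg2, Tob1 and the early response sum.

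The control libraries varied at other members. CD4 3 was the highest of the 3 at Klf2, Foxp1, Btg1, Btg2, Tob1 and Tsc1, with 2.13 times the mean of CD4 1 and 2 for Klf2, 2.44 times for Btg1, 1.85 times for Btg2 and 2.77 times for Tob1, but 1.30 times for Foxp1 and 1.04 times for Tsc1. A list of 10 early response genes (Fos, Fosb, Jun, Junb, Egr1, Ier2, Dusp1, Nr4a1, Zfp36 and Atf3), picked after these values had been seen, summed to 635, 869 and 2868 CPM in CD4 1, 2 and 3 and to 197 to 326 CPM in the lymphomas. All 10 were highest in CD4 3, as were 32% of all tested genes, and the sum there was 3.81 times the mean of the other CD4 libraries. Their part in the Klf2, Btg1, Btg2 and Tob1 levels of the controls was not tested. Without CD4 3 the lymphomas still lay below both remaining CD4 libraries at Klf2, Btg1 and Btg2.

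Genes whose log2 CPM followed a member over all 9 libraries were taken from 7420 tested genes outside the lists. These correlations hold the difference between the groups within them and are descriptions. For Klf2 they were St8sia4 (Pearson r = 0.993), Itgb3 (0.992) and Atp10d (0.991). St8sia4, which encodes a polysialyltransferase, reached 44.8 CPM in lymphoma against 152 to 208 CPM in CD4. For Btg1 they were Man1a (0.996), C230085N15Rik (0.994) and Epc1 (0.993), and for Slfn2 they were Cep350 (0.99), RP24-176P19.6 (0.986) and Prpf39 (0.985).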

How the data were processed

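Transcript 3′ ends were sequenced in 6 lymphoma and 3 CD4 libraries. The authors deposited 1 table of raw read counts per Ensembl gene. The submitters' processing notes name FastQC, HISAT2, SAMtools, HTSeq and the builds mm10 and GRCm38, without versions or settings, and the strand setting is not given in the sources used here. The 5 summary rows for reads in no gene stayed out of library sizes. Gene reads were 27.8% to 35.05% of all reads in CD4 and 38.7% to 49.1% in lymphoma, with lymphoma 53 the lowest of the lymphomas. Columns that matched no sample numbered 0.

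The test was run in edgeR 4.0.16 under R 4.3.3 on the deposited counts (filterByExpr with a minimum count of 10, TMM, robust glmQLFit and glmQLFTest, all 9 libraries), with Benjamini-Hochberg adjustment over 15401 genes and a threshold of 0.05. The SE is the absolute log2 fold change over the square root of F. CPM used TMM-scaled library sizes, and log2 CPM a prior count of 2. The fit was tested on simulated data. The 10 genes and all lists were chosen with earlier results of these data known. Named genes are the 10 members, the 2 largest called rises and falls of each list of relatives, the 3 largest of each other list, and the 3 genes most correlated with Klf2, Btg1 and Slfn2 (average log2 CPM of at least 4). Some genes that the rule names are not reported here. Genes named beyond these were chosen after their values were seen, or to give a partner or marker. Positions are from GENCODE M21 (GRCm38) and promoters from RefSeq. Where a symbol had 2 rows, the row with more reads was used. Alternatives used DESeq2 1.42.0 and limma 3.58.1.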

Additional observations from a re-analysis of the deposited data

Results flagged for a closer look

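Lymphomas were examined for a library whose gap to its nearest neighbour, over the whole range of the 6, exceeded Dixon's 95% critical value. Of 49 results (10 genes of the set, other named genes and marker sums), 8 met this, and 5 of those are values of lymphoma 53. About 1 in 20 such results, or 2.45, would meet it by chance if values were normal and results independent. The 49 results share libraries and were examined in CPM, so 2.45 is a rough guide only. Which results meet the rule can change on the log2 scale, which was not examined. Slfn2 did not meet it in CPM, with 6.21 CPM in lymphoma 53 and 39.4 to 89.2 CPM in the others. Lymphoma 53 had 104.7 CPM of Klf2, with 5.04 to 30.8 CPM in the others, and 166.9 CPM of Foxo1, with 28.4 to 43.1 CPM in the others. It was low in Slfn8, at 5.02 CPM against 18.7 to 25.7 CPM, and in Pabpc1, at 966.9 CPM against 2603 to 2995 CPM. Its plasmacytoid dendritic cell markers summed to 373.7 CPM against 96.7 to 121 CPM, of which Irf8 alone gave 268.8 CPM. Bst2, Tcf4 and Runx2 were also highest in lymphoma 53, while Siglech and Spib were each at 0.0913 CPM. Lymphoma 86 had 0.433 CPM of Foxp3 against at most 0.0913 CPM, and erythroid markers at 889 CPM against 12.2 to 217.5 CPM. Lymphoma 56 had myeloid markers at 2159 CPM against 59.8 to 776.5 CPM, most of it from S100a8 at 1035 CPM and S100a9 at 988.8 CPM.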

How the results depend on the processing

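No paired analysis was possible because the groups share no replicate numbers. The 10 genes kept a negative fold change, within 1 SD (the larger of the groups' SD of log2 CPM) of the reported value, in all 180 alternative fits. That margin is wide, with an SD of 1.57 for Klf2 and 0.90 for Tob1. Tob1 stayed within it without CD4 3, although its change went from -0.77 to -0.08. The margin therefore cannot show that the size of a change is stable. Of 627 values of the 33 other named genes, 1 lost its call: Irs2, without CD4 3. These 33 were taken as the largest called changes of their lists, so their calls were apt to hold. Among other called genes of the lists, Cnot6, Cnot10, Pdpk1, Zfp36l2, Ikzf1 and Ptpn22 lost their calls when 1 library was left out. Genes called in the whole table numbered 4915 with an adjusted p under 0.01 and 5871 to 8137 when 1 library was left out, against 7174. Of 123 tested genes in the wider lists, 46 were lower and 26 higher, and leaving out 1 library gave 41 to 53 and 25 to 33. The 26 include the 12 cell cycle genes listed as a counterpart. Over all tested genes 21.9% were lower and 24.7% higher. With lymphomas 34, 70 and 72 averaged, 6289 genes were called, and 5438 when 56 and 86 were averaged as well. The 1 promoter match became 0 when the reverse strand was left out. Other scalings moved the median of all genes from 0.04 to between -0.06 and 0.003, and the 10 genes lay between -6.79 and -0.50 under them. The lowest lymphoma level of the 10 genes, 2.29 CPM at Slfn1, lay above the 0.184 to 0.36 CPM of 3 counts.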
